A study of Mus musculus with 2 samples.

Results

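The genes described here are the cadherins Cdh1 and Cdh2, the transcription factors Snai1, Snai2, Zeb1, Zeb2 and Twist1, and the intermediate filament gene Vim. They were taken by symbol from a table of raw read counts, and all 8 were found among its 33963 genes. The study followed mouse cells through a reversion from the primed to the naive state of pluripotency, and the table holds 5 populations read together as a single library on the BD Rhapsody system. The naive mESCs (embryonic stem cells) were Rex1-GFP cells, which carry GFP under the Rex1 promoter, and the primed mEpiSCs (epiblast stem cells) were Oct4GIP cells, which carry an eGFPiresPuro transgene under the Oct4 promoter. By the study's methods the Oct4GIP line was grown on fibronectin with FGF2 and Activin A, while the labels place the primed cells on MEF (mouse embryonic fibroblast) feeders. For the reversion, cells were plated on MEF feeders the day before treatment, and the study states that they needed MEFs through the treatment up to day 16. Oct4GIP cells were then treated with the AMPK activator AICAR and with LIF, a cytokine that supports naive cells, and collected at day 8 (d8) and day 16 (d16). The reverted population (d16+10p) had been grown for 10 further passages in 2iL, which is LIF with inhibitors of MEK and GSK3. The study's methods give media with 2iL for naive mESCs as well. The labels give 129/Ola as the strain of all cells, and each pluripotent line is a single line.

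Cadherins are membrane proteins that join cells of the same kind through calcium-dependent contacts, with catenins linking them to actin. E-cadherin, encoded by Cdh1, holds epithelia and naive pluripotent colonies together, and N-cadherin, encoded by Cdh2, takes its place in many mesenchymal and neural cells. In the epithelial-mesenchymal transition (EMT), repressors of the Snail, Zeb and Twist families bind E-boxes, short motifs of the form CANNTG, silence Cdh1 and accompany a rise of the filament protein vimentin. This exchange is known from gastrulation, when epiblast cells leave the epithelium.

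Promoter sequences were at hand in RefSeq (GRCm38.p6) for 4 of the 8 genes, Snai1, Zeb2, Twist1 and Vim. Those of Snai1 and Twist1 are printed because these repressors had their highest level in the same cluster of cells (see the levels by cluster). Each is the 250 bases before the transcription start, 5' to 3', in lower case, with any CANNTG in capitals. The Snai1 promoter lies at chr2:167537945-167538194 on the + strand and the Twist1 promoter at chr12:33957421-33957670 on the + strand.
Snai1: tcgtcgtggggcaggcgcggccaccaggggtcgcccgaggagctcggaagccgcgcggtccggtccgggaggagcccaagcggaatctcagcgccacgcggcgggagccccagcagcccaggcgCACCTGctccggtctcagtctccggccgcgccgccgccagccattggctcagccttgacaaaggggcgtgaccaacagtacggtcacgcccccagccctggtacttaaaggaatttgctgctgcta
Twist1: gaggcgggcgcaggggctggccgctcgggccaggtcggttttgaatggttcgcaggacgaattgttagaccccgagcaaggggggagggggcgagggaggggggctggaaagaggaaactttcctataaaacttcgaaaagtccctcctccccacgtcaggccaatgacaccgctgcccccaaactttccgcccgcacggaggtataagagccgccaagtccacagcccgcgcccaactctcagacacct
The Snai1 window held a single E-box, CACCTG, whose first base is at -126 from the start. The letters CAGGTG, searched on both strands and a special case of CANNTG, were found in 17.2% of the 32851 promoters of the same length in the table, and CANNTG in 66.2%. The windows of Twist1, Vim and Zeb2 held no CANNTG.

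The table held 307121033 reads in 17720 cells, and 0 cell barcodes occurred more than once. Levels below are counts per 1000000 reads (CPM), summed over the cells of a group, and their 95% intervals are exact Poisson or binomial intervals that cover counting error only. Every population is a single tagged sample, so no test between populations was possible, and no p-value is given. A tag did not mark a pure population. The 4 clusters with high Pou5f1, the gene of OCT4, held 81.1% of the d16+10p and 70.5% of the naive cells, but only 29.5% of the d16, 25.8% of the primed and 0.343% of the d8 cells. The study states that 500 primed cells were collected, while 1826 barcodes carried the primed tag. Values are therefore given for all cells of a tag and for its home cluster, the Pou5f1-high cluster in which that tag was most enriched (511 naive, 417 primed, 1182 d16 and 889 d16+10p cells). The study's methods list Rex1-GFP as an XX line, but the naive home cluster carried Y-linked Ddx3y at 73.3 CPM, and those of the other lines and time points at 3.96 to 5.14 CPM. The d16 cells were split at 1000 CPM of Dppa5a, a gene of naive cells, into 1278 Dppa5a-high and 3037 Dppa5a-low cells, with median depths of 14255 and 8691 reads per cell.

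Cdh1 was higher and Cdh2 lower in naive than in primed cells, and both were at naive-like values in the reverted cells. Cdh1 was at 198 CPM (95% interval 191 to 204) in naive, 49.6 CPM in primed, 65.4 CPM in d8 and 177 CPM in d16+10p cells. The d16 cells were divided into 41.2 CPM (Dppa5a-low) and 150.3 CPM (Dppa5a-high). Cdh2 was at 37.3 CPM (34.5 to 40.3) in naive cells, 112 CPM in primed and 85.7 CPM in d8 cells, with d16 cells at 107.8 CPM (Dppa5a-low) and 30.04 CPM (Dppa5a-high) and d16+10p cells at 33.1 CPM. Cdh1 was thus high and Cdh2 low in the 3 naive-like groups, with the opposite in the other 3, and no counting interval crossed between these sets. In the home clusters the contrast was wider, where Cdh1 was at 33.1 CPM for primed cells beside 234 CPM for naive, 159 CPM for d16 and 186 CPM for d16+10p cells. Cdh2 in the same clusters and order was at 115, 24.1, 25.4 and 27.8 CPM. From naive to primed home cluster Cdh1 was therefore 6.89-fold lower and Cdh2 4.62-fold higher. In these sums, fewer cells of a type and less RNA per cell cannot be told apart. Naive and primed cells differ in line and culture medium as well as in state, with a single sample each. These cannot be told apart either.

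**Figure D1:**
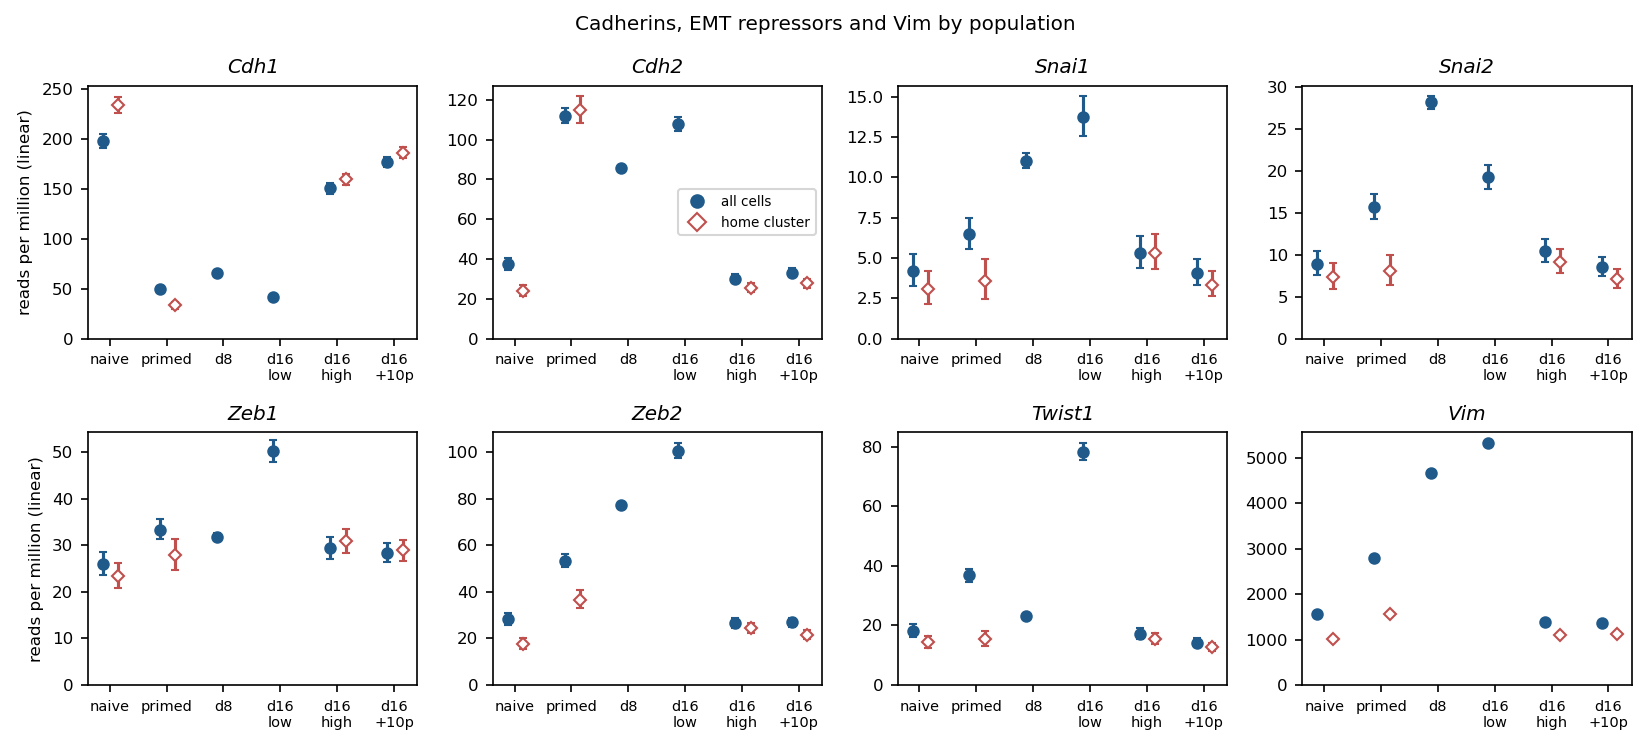
Levels of the 8 genes in CPM (linear axes from 0) by population, with d16 split by Dppa5a. Filled circles are all cells of a tag, open diamonds the home cluster, and bars 95% Poisson intervals. Cdh1 is at 198 in naive, 49.6 in primed and 177 in d16+10p cells, while Cdh2 runs the other way.

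For Cdh1 the share of home-cluster cells with a read followed the same order once every cell was thinned to 5000 reads. For Cdh2 the primed share was again the highest, while naive and d16 cells changed places. Cdh1 was read in 64.2% of naive, 11.3% of primed, 46.7% of d16 and 53.9% of d16+10p home-cluster cells (93.7%, 36.9%, 70.3% and 88.6% before thinning), whose median depths were 24111, 22661, 13617 and 23971 reads. In the macrophage-like cluster, cells that should lack E-cadherin, the share was 8.81% (95% interval 6.97 to 10.9) after and 23.9% before thinning, at a median of 17411 reads. At this depth the primed share, with an interval of 8.39 to 14.8%, overlapped this background, and the other 3 did not. With all reads the summed levels of Cdh1 did not overlap. They were 33.1 CPM (29.6 to 36.9) in the primed home cluster and 23.1 CPM (20.9 to 25.4) in the macrophage-like cluster. For Cdh2 the macrophage-like share was 11.3% (9.26 to 13.7), or 31.2% before thinning. Cdh2 was read in 37.3% of primed home-cluster cells, but in 10.1% of naive, 9.11% of d16 and 11.97% of d16+10p cells (70.3%, 35.4%, 25.6% and 38.9% before thinning). The shares in the 3 naive-like clusters thus could not be told from background at this depth.

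The Snail genes, zinc-finger repressors of Cdh1, were low in pluripotent cells of both kinds. Snai1 was at 4.17 CPM (3.27 to 5.26) in naive cells, 6.49 CPM in primed cells, 11.04 CPM in d8 cells, 13.8 CPM in d16 Dppa5a-low, 5.29 CPM in d16 Dppa5a-high and 4.08 CPM in d16+10p cells. Snai2 was at 8.87 (7.52 to 10.4), 15.7, 28.2, 19.3, 10.4 and 8.50 CPM in the same order. The higher primed values were not a property of the primed home cluster, where Snai1 was at 3.55 CPM against 3.05 in the naive home cluster and Snai2 at 8.02 against 7.34, with overlapping intervals. After thinning, Snai1 was read in 0.792 to 1.97% and Snai2 in 2.70 to 3.59% of home-cluster cells (4.65 to 6.65% and 9.73 to 13.9% before thinning). The macrophage-like cluster had 3.38% (2.26 to 4.84) and 4.22% (2.96 to 5.82), or 6.82% and 12.03% before thinning. After thinning, only the Snai1 interval of the naive home cluster (0.216 to 2.02) did not overlap that of the macrophage-like cluster. Before thinning, the Snai2 shares of the naive, primed and d16+10p home clusters were above the macrophage-like share.

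Zeb1 and Zeb2, a pair of zinc-finger repressors, differed from each other. Zeb1 was at 26.0 CPM (23.7 to 28.6) in naive cells, 33.4 CPM in primed cells, 31.9 CPM in d8 cells, 50.2 CPM in d16 Dppa5a-low, 29.4 CPM in d16 Dppa5a-high and 28.4 CPM in d16+10p cells. Zeb2 was at 28.2 (25.8 to 30.9), 53.4, 77.4, 100.7, 26.5 and 27.0 CPM in the same order. Zeb2 was the only repressor past 2-fold between the naive and primed home clusters, with 17.7 against 36.7 CPM, a ratio of 2.02 that stood just above the threshold. Over all Pou5f1-high clusters it was at 19.6 and 36.4 CPM, or 1.82-fold, and did not pass. Zeb1 in the naive and primed home clusters was at 23.3 and 27.9 CPM. Both genes overlap exons of genes on the opposite strand (Gm10125 for Zeb1, Zeb2os for Zeb2), with 4380 reads beside 10236 of Zeb1 and 1330 beside 20686 of Zeb2. The mapping settings that the study lists for cDNA reads include no strand option, and use of strand in counting is not stated.

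Twist1, a basic helix-loop-helix factor of mesenchyme, was at 18.2 CPM (16.3 to 20.3) in naive cells, 36.8 CPM in primed cells, 23.1 CPM in d8 cells, 78.3 CPM in d16 Dppa5a-low, 17.2 CPM in d16 Dppa5a-high and 14.2 CPM in d16+10p cells. In the 4 home clusters it ranged from 12.7 to 15.6 CPM, so the difference between naive and primed cells lay outside them: 52.7% of the primed Twist1 reads came from 238 primed-tagged cells in a fibroblast-like cluster that held 7.32% of all primed reads. Vim was at 1552 CPM in naive cells, 2802 CPM in primed cells, 4671 CPM in d8 cells, 5313 CPM in d16 Dppa5a-low, 1376 CPM in d16 Dppa5a-high and 1371 CPM in d16+10p cells. Its home-cluster levels were 1007, 1568, 1098 and 1119 CPM in naive, primed, d16 and d16+10p cells, highest in primed by 1.56-fold over naive.

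A gene was counted as past 2-fold when log2 of the ratio of CPM + 1 was at least 1 in size and the higher group reached 5 CPM. Between primed and naive cells, Cdh2 was higher and Cdh1 lower, 2 of the 8 genes, beside 9.14% of 12927 genes tested. The log2 ratios were 1.56 for Cdh2 and -1.97 for Cdh1, and those of the other 6 genes ran from 0.35 for Zeb1 to 0.98 for Twist1. The median over the 8 was 0.81 beside 0.09 for all genes. In the home clusters the 2 cadherins and Zeb2 passed, beside 13.8% of genes, and the median fell to 0.25 over the 7 genes with enough reads, Snai1 being the gene without.

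Between d8 and primed cells 0 of the 8 genes passed 2-fold, beside 6.71% of 12731 genes, with Snai2 highest at a log2 ratio of 0.81 and Twist1 lowest at -0.65. Against the primed home cluster, 4 of 8 passed, beside 22.9% of genes: Snai2 with a log2 ratio of 1.70, Vim with 1.57, Snai1 with 1.40 and Zeb2 with 1.05, all higher in d8. Cdh1 was at a log2 ratio of 0.96. The d8 population held 0.343% of its cells in Pou5f1-high clusters, and its Snai1 reads came mainly from 2164 cells of a fibroblast-like cluster with Lox among its leading genes (68.4% of Snai1 and 42.1% of Snai2 reads, from 25.02% of all d8 reads). That cluster carried Ddx3y at 97.0 CPM, above the 3.96 CPM of the primed home cluster, and what share of it was feeder cells was not tested.

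Of the 6 comparisons between populations, the one within day 16 had the most of the 8 genes past 2-fold, and also the largest share of all genes. Dppa5a-low against Dppa5a-high cells had 6 of 8 genes past 2-fold, beside 28.4% of 13642 genes: Twist1 was 4.35-fold, Vim 3.86-fold, Zeb2 3.70-fold, Cdh2 3.51-fold and Snai1 2.34-fold higher in Dppa5a-low cells, and Cdh1 was 3.59-fold lower. Snai2 (1.77-fold) and Zeb1 (1.69-fold) were higher but within 2-fold. The median log2 ratio was 1.52 over the 8 genes and 0.04 over all genes tested. Most Twist1 and Snai1 reads of the Dppa5a-low cells came from another cluster than most of those of Cdh2 and Vim. Cluster 3, led by Fabp7 and Slc1a3, held 49.99% of all Dppa5a-low reads, 64.5% of those of Cdh2 and of Vim and 59.5% of those of Zeb2, whereas fibroblast-like cluster 6, led by collagen genes, held 19.8% of all reads, 60.4% of Twist1, 57.1% of Snai1 and 8.15% of Cdh2 reads. Zeb1 reads were nearer to the shares of all reads, with 51.7% in cluster 3 and 23.6% in cluster 6, as were Zeb2 reads in cluster 6 with 17.9%. These were 1641 cells of cluster 3 and 723 cells of cluster 6 among the 3037 Dppa5a-low cells.

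In finer bins of Dppa5a the day 16 cells changed in steps. Cdh1 was at 38.7 CPM in the 2675 cells below 250 CPM of Dppa5a, 38.0 in the 251 cells from 250 to 500, 102.5 in the 111 cells from 500 to 1000, 126 in the 184 cells from 1000 to 2000, 150.3 in the 556 cells from 2000 to 4000 and 159 CPM in the 538 cells above. Cdh2 over the same bins was at 109.8, 103.5, 69.1, 47.0, 32.8 and 21.2 CPM, and Vim at 5441, 4924, 3000, 2263, 1440 and 999 CPM. The 2 lowest bins did not differ beyond counting error in either cadherin, and the summed levels of both cadherins had moved in the bin from 500 to 1000 CPM. The intervals of the share of cells with a read after thinning overlapped: in that bin the share was 22.5% for Cdh1 (13.9 to 33.2) beside 12.9% (8.52 to 18.4) in the bin below, and 26.3% for Cdh2 (17.0 to 37.3) beside 26.8% (20.7 to 33.6). Whether its 111 cells were in between or a mixture of high and low cells was not tested.

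**Figure D2:**
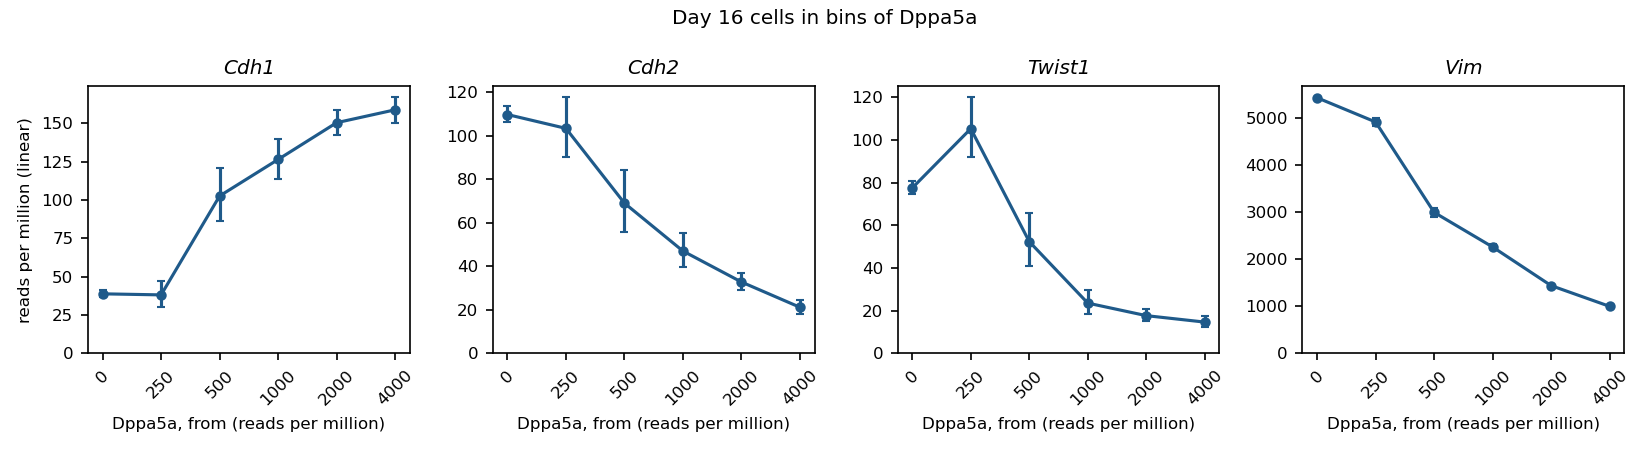
Levels of Cdh1, Cdh2, Twist1 and Vim (CPM, linear axes from 0) in day 16 cells binned by Dppa5a, with the lower edge of each bin on the x axis and 95% Poisson intervals. Cdh1 rises from 38.7 to 159 and Cdh2 falls from 109.8 to 21.2 across the bins.

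The d16 Dppa5a-high cells differed from primed cells in 4 of 8 genes, beside 12.2% of 13173 genes. Cdh1 was 2.99-fold higher, and Cdh2 3.64-fold, Twist1 2.07-fold and Vim 2.04-fold lower. Between the d16 and primed home clusters Cdh1 (4.71-fold higher) and Cdh2 (4.39-fold lower) passed, beside 14.5% of genes, while the log2 ratio of Vim was -0.51 and that of Twist1 0.02 (-0.26 to 0.32). Further change with 10 passages in 2iL was small. Between d16+10p and d16 Dppa5a-high cells 0 of 8 genes passed, beside 2.68% of 12625 genes, and the log2 ratios ran from -0.31 for Snai1 to 0.23 for Cdh1. Between d16+10p and naive cells 0 of the 7 genes with enough reads passed, beside 1.76% of 12459 genes, with log2 ratios from -0.34 for Twist1 to 0.12 for Zeb1. Cdh1 was 1.12-fold lower in d16+10p than in naive cells. In the home clusters it was 1.26-fold lower, a gap larger than Poisson counting error (log2 ratio -0.33, -0.40 to -0.26). The naive and d16+10p cells come from different lines with a single sample each, so line and reversion history cannot be told apart.

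Clustering without the 8 genes and 30 related genes gave 18 clusters, 15 of them of at least 100 cells. These 15 did not lie along a single line from Cdh1 to Cdh2. The naive pluripotent-like clusters 11, 7 and 5 held Cdh1 at 233, 178 and 160 CPM and Cdh2 at 24.6, 31.1 and 26.0 CPM. Clusters 10 (led by T and Shh), 13 (neuron-like), 3, 4 (led by Acta2 and Tagln) and 12 (primed pluripotent-like) had the reverse, with Cdh2 from 115 to 205 CPM and Cdh1 from 17.4 to 37.3 CPM. Cluster 9, which was led by genes that include Cfc1, Lhx1 and Cer1 and came to 82.2% from d8, was high in both, with Cdh1 at 206 and Cdh2 at 234 CPM. Fibroblast-like clusters 0 and 6 and macrophage-like cluster 8 were low in Cdh1, between 21.7 and 23.1 CPM. Their Cdh2 was between 31.7 and 53.2 CPM, at or below the median of 53.2 CPM over the 15 clusters. Unnamed clusters 2 and 14 were in between for Cdh1 (47.0 and 56.5 CPM), with Cdh2 at 87.3 and 35.5 CPM. Epithelial-like cluster 1 (Krt8, Krt18) held Cdh1 at 140.1 and Cdh2 at 48.01 CPM, and gave 48.7% of the Cdh1 reads of d8 from 22.5% of all d8 reads. Cluster 9 gave another 17.01% from 5.39%, so the d8 level of Cdh1 was for the most part that of these 2 clusters, beside the 0.343% of d8 cells in Pou5f1-high clusters.

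**Figure D3:**
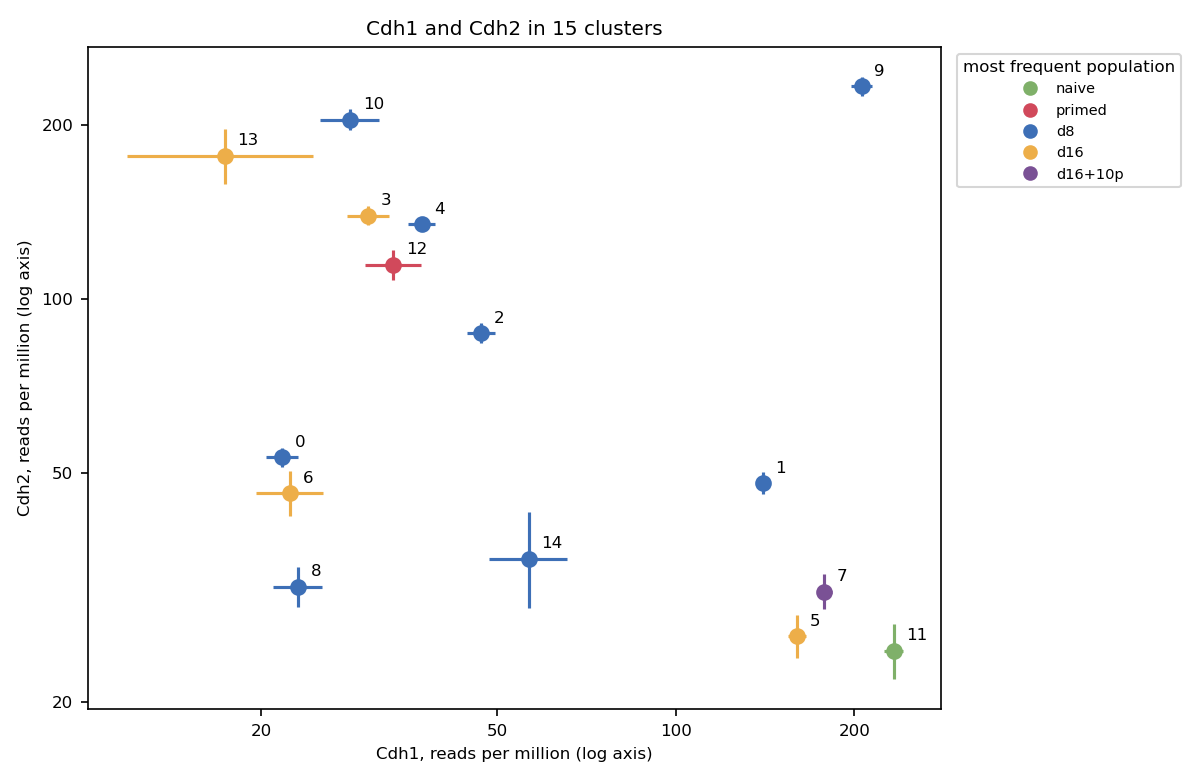
Cdh1 against Cdh2 in the 15 clusters of at least 100 cells, both in CPM on log axes with 95% Poisson intervals. Numbers name the clusters and colours the population that gave most cells. Cluster 9 is high in both cadherins (206 and 234 CPM). Clusters 0, 6 and 8 are low in Cdh1, with Cdh2 at or below its median of 53.2 CPM.

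Each repressor had its own pattern over the clusters. Snai1 was at 40.04 CPM in cluster 6 and 30.3 in cluster 0, both fibroblast-like, and at most 6.44 CPM in the other 13. Snai2 was less confined, at 47.8 CPM in cluster 0, 37.8 in cluster 6, 35.5 in cluster 4, 22.7 in cluster 10 and 20.6 in epithelial-like cluster 1. Twist1 was at 232 CPM in cluster 6, followed by 44.7 in cluster 3 and 41.6 in cluster 0, and was read in 55.1% of cluster 6 cells after thinning (66.1% before), beside 6.27% of the macrophage-like cells (17.3% before), at median depths of 7790 and 17411 reads. The Zeb genes peaked outside the fibroblast-like clusters. Zeb1 was highest in neuron-like cluster 13 with 87.3 CPM, and Zeb2 in macrophage-like cluster 8 with 157 CPM, which gave 19.1% of the Zeb2 reads of d8 from 9.02% of all d8 reads. Vim was at 6756 CPM in cluster 3, 6296 in cluster 4 and 5860 in cluster 0, and lowest at 1013 to 1579 CPM in the 4 Pou5f1-high clusters. Cluster 9, with both cadherins high, held Snai2 at 8.73, Zeb1 at 25.8 and Zeb2 at 35.3 CPM, below the medians over the 15 clusters (12.9, 30.8 and 50.4 CPM), Snai1 at the median of 4.11 CPM and Twist1 at 20.3 CPM, above its median of 16.1 CPM. As a measure of free RNA, the summed macrophage markers stood at 12.8 to 20.5% of their all-cell level in the other 14 clusters, while Cdh2 in naive cluster 11 stood at 30.8% and Cdh1 in primed cluster 12 at 39.8% of their own all-cell levels. Single macrophage markers in these clusters ranged from 10.9 to 65.1%, however, and Cdh2 in the macrophage-like cluster stood at 39.8%. The percentages of Cdh2 in cluster 11 and Cdh1 in cluster 12 thus lay within the range of the single markers. Whether markers at the upper end were also made by other cells was not tested, so this range need not measure free RNA alone.

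**Figure D4:**
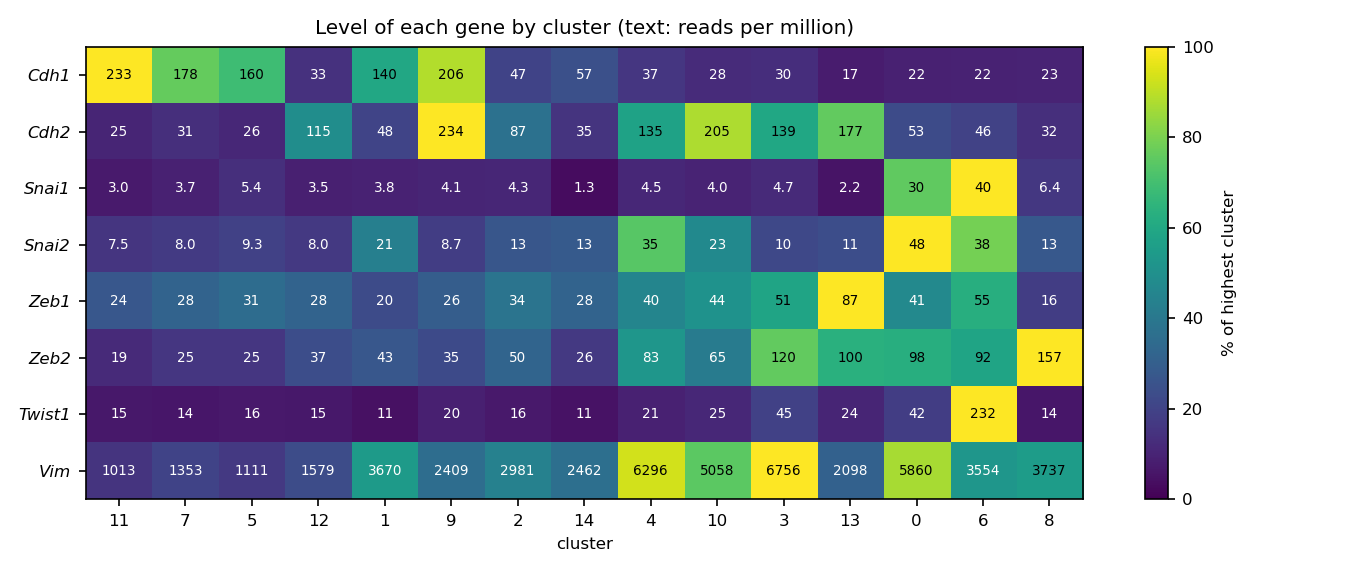
Level of each gene in the 15 clusters, with CPM printed and the colour giving the percent of that gene's highest cluster. Snai1 and Twist1 peak in fibroblast-like cluster 6, Zeb1 in neuron-like cluster 13 and Zeb2 in macrophage-like cluster 8.

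Over the 15 clusters, log2 levels of Cdh1 and Cdh2 had a Pearson r of -0.36, and Cdh1 ran most against Zeb2 (r = -0.84). Among the repressors Snai1 and Twist1 were the closest pair (r = 0.80), and Zeb2 was close to Vim (r = 0.78). The points are clusters of a single library with unequal depth, and these values describe them only. The gene closest to Cdh1 of 6844 genes was Baz2a (r = 0.88), followed by Llgl2, a gene of epithelial polarity (r = 0.88). Snai1 was closest to Cped1 (0.96), with Dcn, a matrix proteoglycan of fibroblasts, in the third place (0.94). Twist1 was closest to P3h3, a gene of collagen processing (0.96), followed by the retinoic acid receptor gene Rarb and the elastic fibre gene Emilin1 (both 0.95), Snai2 to Ccn4 (0.95), Vim to Wls (0.95), Zeb2 to Ptpra (0.96), Cdh2 to Serf1 (0.92) and Zeb1 to Mir100hg (0.90).

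In single d16 cells, Cdh1 and Cdh2 were read together less often than the product of their shares gives, and this was not detectable within clusters. Cells thinned to 5000 reads were counted as having both when each had a read, and the count was set against the product of the shares. In d16 cells 141 of 3711 had both, which was 0.63 of the expected count (0.53 to 0.74). The ratio was 0.72 (0.51 to 0.98) in naive and 0.78 (0.62 to 0.97) in d16 Dppa5a-low cells. It was 0.94 (0.75 to 1.17) in primed, 0.97 (0.74 to 1.25) in d16 Dppa5a-high, 0.83 (0.64 to 1.06) in d16+10p and 1.03 (0.95 to 1.12) in d8 cells, whose intervals all held 1. When the expected count was computed within each cluster and summed, the d16 ratio was 0.89 (0.75 to 1.05), that of naive 0.90 (0.63 to 1.23) and that of d16 Dppa5a-low 0.82 (0.65 to 1.02). In each of the 15 clusters the interval held 1. Cluster 9 gave the most cells with both, 215 of 785 or 27.4%, at a ratio of 0.98 (0.87 to 1.10), with Cdh1 in 47.01% and Cdh2 in 59.2% of cells (61.8% and 74.7% before thinning). The authors removed doublets of different tags, but cells of the same tag caught together were not removed. Without cluster 9 the d8 ratio was 0.88 (0.79 to 0.98).

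**Figure D5:**
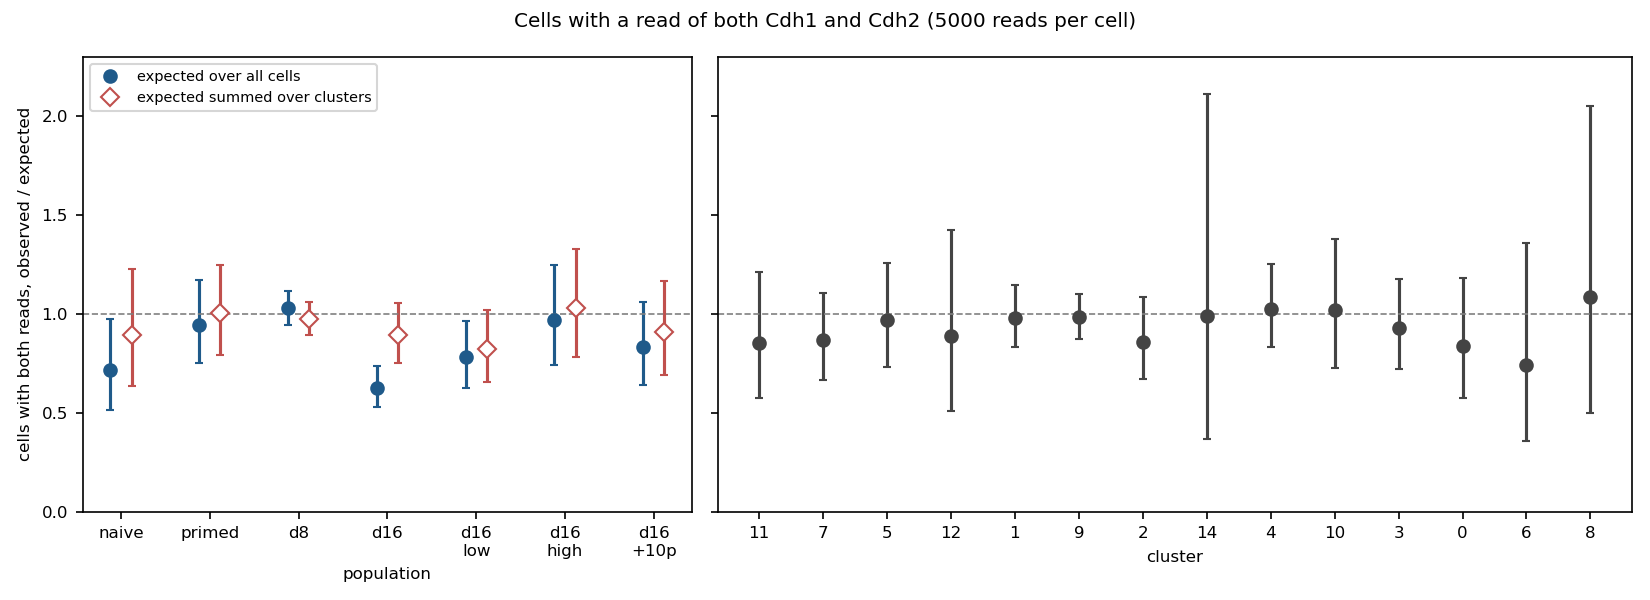
Observed over expected number of cells with a read of both Cdh1 and Cdh2 after thinning to 5000 reads, with 95% intervals for counting error. Left, populations, with the expected count over all cells (filled) or summed over clusters (open). Right, 14 clusters of at least 100 cells (neuron-like cluster 13, with 2 such cells, is not drawn). The d16 ratio moves from 0.63 to 0.89.

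Of 10 epithelial genes, 5 had enough reads in the naive and primed home clusters, between which 13.8% of 12504 genes were past 2-fold. Epcam, an adhesion protein of epithelia, went against Cdh1 and was higher in primed cells (145.6 against 34.04 CPM), Esrp2 and Ocln were lower (1.73 against 6.01 and 3.96 against 10.1 CPM), and Grhl2 (20.1 CPM in both) and Cldn6 (18.7 against 19.5 CPM) were within 2-fold. The median log2 ratio of the 5 was -0.06 beside 0.01 for all genes. Of 10 other cadherins and catenins, 8 had enough reads and 0 passed 2-fold, with the catenins Ctnnb1 at 472 against 349 and Ctnna1 at 208 against 211 CPM. Of 10 mesenchymal genes, 8 had enough reads and 0 passed 2-fold between these clusters (median -0.03). Between d8 and the primed home cluster, 22.9% of all genes passed 2-fold. Of the 8 mesenchymal genes, 6 were higher in d8 (Fn1, Prrx1, S100a4, Sparc, Tgfbr2 and Twist2, median 2.19 beside 0.13 for all genes). The rise was not confined to this list. Of 6 epithelial genes with enough reads, 3 were higher in d8 (Cldn6, Cldn7 and Esrp2) and 1 was lower (Grhl2). Of 8 cadherins and catenins, 2 were higher (Cdh11 and Jup) and 0 lower.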

How the data were processed

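The deposited table holds whole-number read counts per gene and cell. The authors trimmed reads (cutadapt 2.10), mapped them to cDNA and ncRNA (Bowtie2 2.3.4.1, GRCm38, called mm10 in the notes), counted reads without collapsing them to molecules, kept barcodes above the knee of the read numbers, assigned tags, and removed 4.13% of cells as doublets.

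Populations were taken from the tags, 1 sample each, so groups have no replicates, fold changes carry counting intervals, and no test was run. Seurat 5.3.0 in R 4.3.3 clustered all 17720 cells (2000 variable genes less the described and listed genes, 56 exact components, 50 exact neighbours, resolution 0.8). Clusters were named from marker lists where these led the top 30 genes and other lists did not. Fold changes used a pseudocount of 1 CPM and genes of at least 5 CPM in either group. Thinning drew 5000 reads per cell and left out shallower cells (68 naive, 271 primed, 755 d8, 604 d16 and 69 d16+10p). The genes named are the 8, lists of 10 epithelial, 10 cadherin or catenin and 10 mesenchymal genes, the 3 genes with the highest r to each member among genes of at least 50 CPM, and Dppa5a, Pou5f1 and Y-linked genes. The members and lists were chosen with earlier results of these data known. Intervals were run on simulated Poisson counts: for d8 against primed, 95.0% of intervals over 12731 genes held the true value. The intervals assume Poisson counts, so this checks the calculation only. Repeated reads of a molecule and differences between cells were not simulated, and coverage in the real counts was not tested. TMM factors came from edgeR 4.0.16; positions came from GENCODE M21. Depth ran from 3179 to 111822 reads per cell.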

Additional observations from a re-analysis of the deposited data

How the results depend on the processing

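No paired analysis was possible because the result comes from no test, and leaving out a replicate was not possible with 1 sample per population. The direction of both cadherins between primed and naive cells and between d16 Dppa5a-high and primed cells was the same in every alternative run. The number of genes past 2-fold moved as follows. Primed against naive gave 4 in place of 2 after thinning (Snai1 and Twist1 added). For d8 against primed, 0 became 1 with the mean over cells and after thinning (Twist1, lower), and 4 in Pou5f1-high clusters or, an alternative chosen after seeing the data, home clusters. For d16 Dppa5a-high against primed, 4 became 2 in Pou5f1-high clusters, in home clusters and with the split at 500 CPM, and the log2 ratio of Twist1 changed sign to 0.061 and 0.024 in the first and second of these. Without the level filter the share of all genes past 2-fold was 4.97%, 2.96%, 14.6%, 6.85%, 1.66% and 0.987%, in the order of the comparisons above.

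The joint ratio of Cdh1 and Cdh2 depended on how a cell was counted. From 2 reads of each gene it was 1.23 for d8, 0.41 for primed, 0.34 for d16, 0.27 for d16 Dppa5a-high and 0.18 for naive cells (1 cell with both). Thinned to 3000 reads it was 0.42 in naive and 0.75 in d16, and to 10000 reads 0.79 in d16 cells. Chosen after seeing the data, the expected count summed over clusters gave 0.89 for d16, and leaving out cluster 9 gave 0.88 for d8 cells. The highest cluster corresponded for 7 of 8 genes at resolution 0.4 (not Cdh1) and for 8 at 1.2. Of 97 values of this kind 73 kept within 1.5 times or their counting interval, and 24 moved. Of 368 values of single genes, 214 kept, 152 moved and 2 changed sign (Twist1, above). The causes of the moves were not tested. Depth limits low genes such as Snai1, which had 35 to 97 reads in a home cluster.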

Other observations

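A few listed genes outside the 8 had levels as uneven over the clusters as the members. Cdh11, a cadherin of mesenchyme, was at 422 CPM in fibroblast-like cluster 0 and 371 CPM in fibroblast-like cluster 6, both low in Cdh1. In naive pluripotent-like cluster 5 it was at 29.9 CPM. Cdh6 was highest in cluster 3 (154 CPM) and cluster 10 (124 CPM), both high in Cdh2. Twist2 separated the fibroblast-like clusters in the opposite way to Twist1, with 115 CPM in cluster 0 and 11.1 CPM in cluster 6, beside 41.6 and 232 CPM of Twist1.

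Some cells of a tag were found in the home cluster of another population. The 53 primed-tagged cells in cluster 5, the d16 home cluster, held Cdh1 at 180.1 CPM (150.7 to 213.6) and Cdh2 at 36.8 CPM, against 33.1 and 115 CPM in the primed home cluster. The 89 d16-tagged cells in cluster 7, the d16+10p home cluster, held Cdh1 at 100.8 CPM (88.1 to 114.8) and Vim at 3053 CPM, against 186 and 1119 CPM in the d16+10p cells of that cluster. Whether these are mis-assigned tags was not tested.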
